A study of Homo sapiens with 6 samples.

Results

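The imprinted domain at 11p15.5 was described by the H3AcK9 peaks that share at least 1 base with chr11:1950000-3000000 of hg19, a window named for *H19*, *IGF2*, *KCNQ1*, *KCNQ1OT1*, *CDKN1C* and *PHLDA2*. The untreated list held 266 such peaks, the vorinostat lists 724 and 736, and the romidepsin lists 739 and 774, which is 3239 of 3983296 peaks in all 5 lists. Cells of SKOV3 WT, an established line from a human ovarian carcinoma, were kept untreated or incubated for 24 h with vorinostat or romidepsin, 2 histone deacetylase inhibitors (HDACis), each at 1 times its IC50. Chromatin was immunoprecipitated with an antibody to H3AcK9, histone H3 acetylated at lysine K9. Each condition had 1 ChIP sample, and each treated condition gave 2 peak lists. The paper's reporting summary states that each treated sample was split in 2 during ChIP-seq. Elsewhere the paper calls the results independent experiments or biological replicates. With 1 ChIP sample per condition, both lists of a drug are taken here to measure the same cells. Differences between conditions therefore carry neither a replicate check nor a p-value. The lists hold peak positions and a score whose scale is not named, without reads, so the depth behind a peak is unknown.

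Imprinted genes are expressed mainly from the copy inherited from 1 parent. In the H19/IGF2 domain, *H19*, a non-coding RNA, is expressed from the maternal copy and *IGF2*, a growth factor, from the paternal copy, and a differentially methylated region bound by CTCF on the maternal copy keeps *IGF2* there from enhancers that serve *H19*. In the neighbouring KCNQ1 domain, *KCNQ1OT1*, a long antisense RNA that starts inside the potassium channel gene *KCNQ1*, is made from the paternal copy, while *KCNQ1*, *CDKN1C*, an inhibitor of cyclin-dependent kinases, and *PHLDA2*, a restrainer of placental growth, are expressed mainly from the maternal copy. H3AcK9 is a mark of active promoters and enhancers. The lists do not separate the parental copies, so every value below is a sum over both.

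The window was divided at 2300000 into the H19/IGF2 domain of 350 kb and the KCNQ1 domain of 700 kb, and into 21 bins of 50 kb. The labels name hg38, but 14 of 23 chromosomes had a peak beyond their hg38 end, and the positions are those of hg19. Genes were placed only to the bin, from general knowledge of hg19. Their order matched GENCODE 44 for 14 of 14 genes, and a bin named for a gene may also hold others.

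For the 3 bins in which romidepsin cover exceeded untreated cover by the most bases, the 250 bases before the transcription start of 1 gene each are shown, with every CpG in capitals, because their CpG content differs widely. They are RefSeq sequences of GRCh38.p14, of *H19* (chr11:2001267-2001516, minus strand), *INS*, the insulin gene (chr11:2161210-2161459, minus strand), and *TSSC4* (chr11:2400500-2400749, plus strand). The peaks, in hg19, were not laid over them.
H19: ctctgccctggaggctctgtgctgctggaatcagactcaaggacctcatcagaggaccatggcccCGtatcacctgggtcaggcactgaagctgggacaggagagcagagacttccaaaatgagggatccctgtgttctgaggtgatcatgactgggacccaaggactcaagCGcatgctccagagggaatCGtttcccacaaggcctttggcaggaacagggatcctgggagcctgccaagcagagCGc
INS: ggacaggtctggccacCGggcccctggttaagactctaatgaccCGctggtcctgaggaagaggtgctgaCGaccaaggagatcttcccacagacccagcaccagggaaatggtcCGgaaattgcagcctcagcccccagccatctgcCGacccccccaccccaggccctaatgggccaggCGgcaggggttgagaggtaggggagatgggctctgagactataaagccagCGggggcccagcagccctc
TSSC4: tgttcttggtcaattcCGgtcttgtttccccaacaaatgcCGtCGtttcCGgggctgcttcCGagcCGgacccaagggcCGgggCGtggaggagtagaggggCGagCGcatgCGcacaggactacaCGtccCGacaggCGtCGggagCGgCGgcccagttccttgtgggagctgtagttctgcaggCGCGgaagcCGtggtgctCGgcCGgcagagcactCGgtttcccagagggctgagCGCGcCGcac
The *H19* stretch holds 4 CpG and 58% G or C, and 70.7% of 35116 promoter stretches of the same length held as many CpG or more. The *INS* stretch holds 7 CpG (58.9% of promoters had as many or more) and the *TSSC4* stretch 26 (19.6%), against a median of 11 over all promoters. Promoter sequences were matched for 4 of the 14 genes named here, and for 1 of the 6 genes that name the window.

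In untreated cells the KCNQ1 domain was the more widely acetylated of both domains. Untreated peaks covered 193788 bases, or 27.7%, of the KCNQ1 domain and 50858 bases, or 14.5%, of the H19/IGF2 domain, a cover per kb that was 1.91 times higher in the KCNQ1 domain. There were 270 peaks per Mb in the KCNQ1 domain and 220 in the H19/IGF2 domain, and the median width was 622 bp and 430 bp. The widest cover was at the far end, where the bin of *CDKN1C*, *SLC22A18* and *PHLDA2* was covered to 52% and the bin of *PHLDA2* and *NAP1L4*, which encodes a histone chaperone, to 54.2%. The *H19* bin and the bin of *IGF2*, *INS* and *TH*, the gene of tyrosine hydroxylase, were covered to 16.5% and 16.9%. The median was 13.3% over the genome's bins with at least 1000 untreated covered bases, so bins with less or no cover are left out of it.

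**Figure D1:**
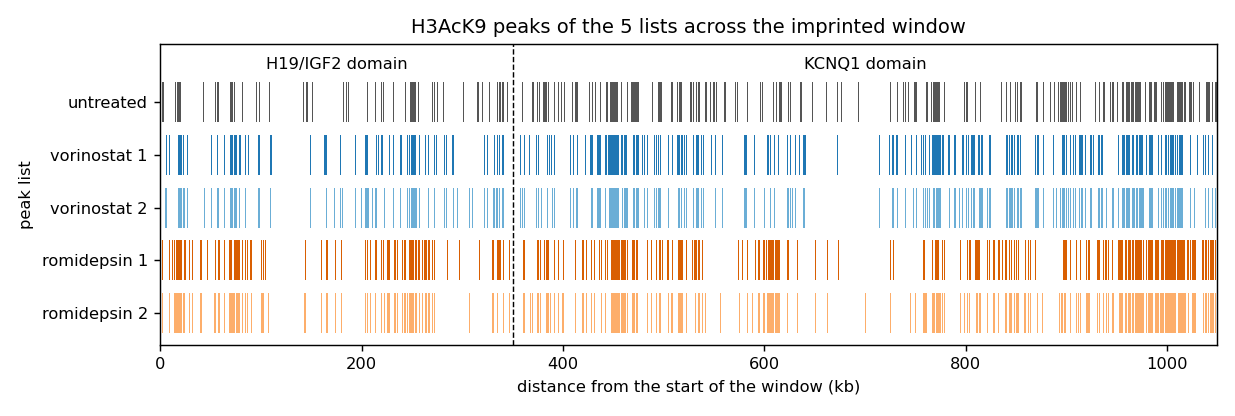
Positions of the H3AcK9 peaks of the 5 lists along the window, in kb from its start, 1 row per list. Each bar is 1 peak drawn to scale and the dashed line is the limit between the H19/IGF2 and the KCNQ1 domain at 350 kb. The untreated row holds 266 peaks and the treated rows 724 to 774, and the longest stretch without a peak in the H19/IGF2 domain lay at the same place, near 120 kb, in all lists.

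Under both HDACis the H19/IGF2 domain held more peaks and more covered bases. It held 77 peaks untreated, 194 and 226 under vorinostat, and 248 and 266 under romidepsin. These are 2.73-fold and 3.34-fold the untreated number. Covered bases were 50858 in the untreated list, 64789 and 69093 under vorinostat, and 93787 and 97176 under romidepsin. All 4 treated lists lay above the untreated one, and both romidepsin lists above both vorinostat lists. As the mean of both lists, the fold was 1.32 for vorinostat (1.27 and 1.36 in its lists) and 1.88 for romidepsin (1.84 and 1.91). Romidepsin cover was 1.43 times vorinostat cover.

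The KCNQ1 domain had a similar multiplication of peaks, but its cover stayed near the untreated value under vorinostat and was slightly above it under romidepsin. It held 189 peaks untreated, 530 and 510 under vorinostat, and 491 and 508 under romidepsin (2.75-fold and 2.64-fold). Covered bases were 193788 untreated, 195079 and 188845 under vorinostat, and 211433 and 220577 under romidepsin. The vorinostat lists lay on either side of the untreated value (fold 0.991), and both romidepsin lists above it (fold 1.11). The cover per kb of the KCNQ1 domain over that of the H19/IGF2 domain was 1.91 untreated, 1.51 and 1.37 under vorinostat, and 1.13 in each romidepsin list.

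Chromosome 11 as a whole had 2.31-fold and 2.35-fold the untreated number of peaks under vorinostat and romidepsin, and 0.851-fold and 0.936-fold the covered bases. Over the 20 chromosomes with peaks in all lists, the covered bases were 0.879-fold and 0.967-fold. The excess of cover in the H19/IGF2 domain therefore stood against a deficit in the totals of chromosome 11 and of these 20 chromosomes. Of the neighbouring stretches, the 350 kb below the window had folds of 0.971 under vorinostat and 1.39 under romidepsin, and the 700 kb above it 0.864 and 1.10. Romidepsin cover was thus also higher in both neighbouring stretches. Vorinostat cover was close to the untreated value in the stretch below and lower in the stretch above.

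**Figure D2:**
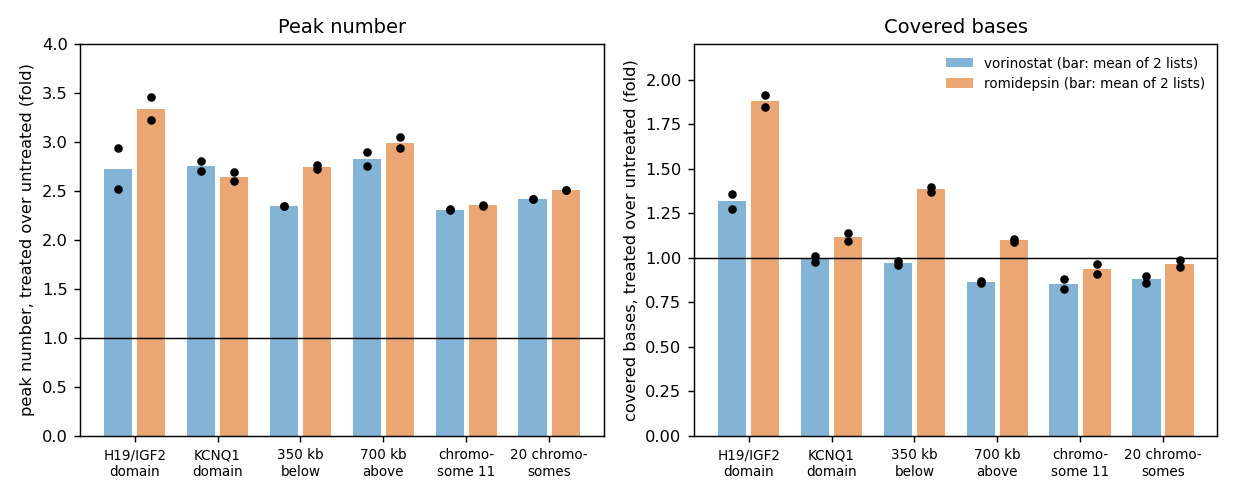
Fold of treated over untreated values in peak number (left) and covered bases (right) for both domains, the neighbouring 350 kb and 700 kb, chromosome 11 and the 20 chromosomes with peaks in all lists. Bars are the mean of both lists of a drug and points are each list. The H19/IGF2 bars for covered bases, 1.32 and 1.88, were the highest of each drug.

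These folds depended on the score. Untreated peaks carried the highest scores, with a median of 2.17 in the H19/IGF2 domain and 1.28 in the KCNQ1 domain, against medians of 0.873 to 1.05 in the treated lists. Over the chromosomes with peaks in all lists, the medians were closer, at 0.935 untreated and 0.864 to 0.876 in the treated lists. A score of at least 5 was found for 15 of 77 untreated peaks of the H19/IGF2 domain and 4 of 189 of the KCNQ1 domain, and for none of the treated peaks of the window, where the highest score was 4.36. The share of such scores over all peaks of the lists is not given here. Of the 10 highest untreated scores, 4 lay in the bin of *ASCL2*, a transcription factor of trophoblast and intestinal stem cells, and 3 in the *H19* bin, the highest being 10.99 at chr11:2267411-2267640 and 10.3 at chr11:2004444-2004814. When only peaks scoring 1 or more were kept, the folds of covered bases were below 1 in the H19/IGF2 domain (0.841 for vorinostat, 0.914 for romidepsin) and in the KCNQ1 domain (0.503 and 0.458). In all 8 alternative settings the H19/IGF2 fold was above the KCNQ1 fold, for each drug.

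By bins of 50 kb, those of *IGF2* and *H19* had the largest excess of covered bases over untreated cells under each drug. Under vorinostat the largest difference of all was a deficit, with treated minus untreated cover of -6121.5 bases in the bin of *PHLDA2* and *NAP1L4*. The bin of *IGF2*, *INS* and *TH* (chr11:2150001-2200000) had 8474 covered bases in the untreated list, 13773 and 13672 under vorinostat, and 22744 and 22764 under romidepsin. Its folds were 1.62 and 2.69, and both lists of a drug were nearly equal. The *H19* bin (chr11:2000001-2050000) had 8230 untreated, 12932 and 13325 under vorinostat, and 19029 and 19671 under romidepsin (folds 1.60 and 2.35). The bin above *IGF2* (chr11:2200001-2250000) followed with 8301 untreated, 12557 and 13383, and 16487 and 15689 (1.56 and 1.94). In these bins the order untreated, vorinostat, romidepsin held without overlap of the lists. The *ASCL2* bin was otherwise, with 8842 untreated, 6390 and 7840 under vorinostat, and 9411 and 9430 under romidepsin (0.805 and 1.07). Of the bins without a landmark gene, chr11:1950001-2000000 had 8104 untreated, 6948 and 9219 under vorinostat, and 14072 and 15604 under romidepsin, so that only romidepsin lay apart from the untreated list. The bins at 2050001 and 2100001 had folds of 1.16 and 1.43 under vorinostat and 1.23 and 1.59 under romidepsin.

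In the H19/IGF2 domain, both vorinostat lists lay above the untreated list in 5 of 7 bins and below it in 1, and both romidepsin lists lay above it in 7 of 7. Over all bins of the genome with at least 1000 untreated covered bases, the shares above were 28.4% for vorinostat and 33.0% for romidepsin, and the shares below 60.7% and 56.2%. The KCNQ1 domain was mixed, with both vorinostat lists above in 6 of 14 bins and below in 6, and both romidepsin lists above in 8 and below in 3. Both romidepsin lists lay above both vorinostat lists in 6 of 7 bins of the H19/IGF2 domain and below in none, and above in 8 and below in 4 of 14 bins of the KCNQ1 domain. Of the 34082 bins of the romidepsin set, 41.8% had both romidepsin lists above and 29.0% below.

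Past 1.5-fold in covered bases, vorinostat was higher in 3 of the 21 bins, all in the H19/IGF2 domain, and lower in 1, in the KCNQ1 domain. Genome-wide, 12.4% of bins were higher and 28.0% lower. Romidepsin was higher in 8 bins, which were 5 of 7 in the H19/IGF2 domain and 3 of 14 in the KCNQ1 domain, and lower in 1, against 12.8% higher and 27.6% lower genome-wide. For the alternative settings that follow, genome-wide shares were not computed, and the shares above do not apply to them. With only scores of at least 1, the split was 1 higher and 11 lower for vorinostat and 0 higher and 12 lower for romidepsin. With peaks of at least 200 bp the vorinostat split turned to 1 higher and 3 lower, while romidepsin had 7 higher and 2 lower, and with peaks merged across gaps of up to 1000 bp it was 14 higher and 0 lower for each drug. The median fold of the H19/IGF2 bins was 1.43 under vorinostat and 1.83 under romidepsin, that of the KCNQ1 bins 0.972 and 1.07, and that of all bins 0.837 and 0.882. Among bins of the genome with untreated cover in the range of the H19/IGF2 bins, 3117 to 8842 bases, the medians were 0.880 and 0.885, and 12.8% and 16.0% were higher by 1.5-fold or more.

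**Figure D3:**
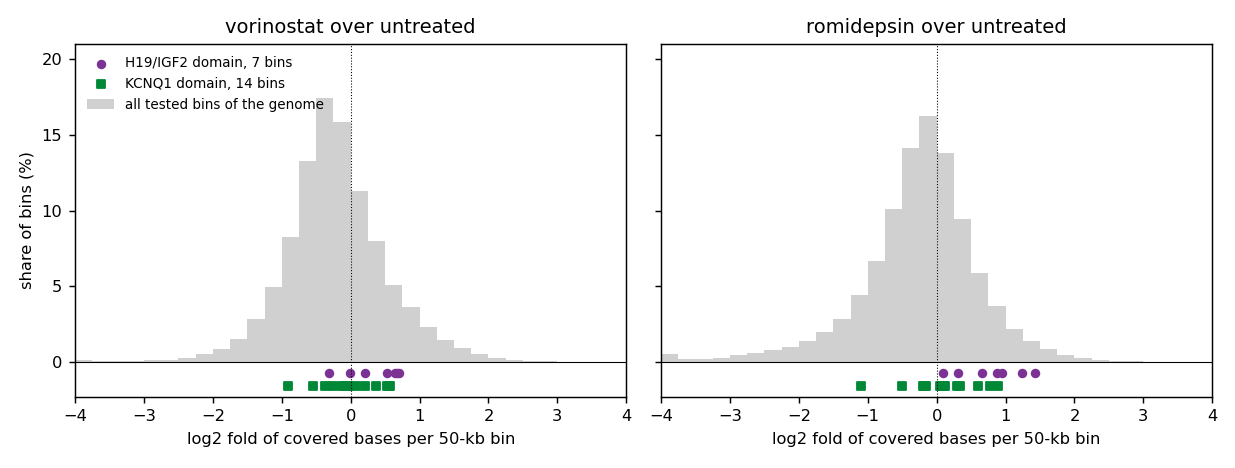
Share of the genome's tested bins (grey, in %) by the log2 fold of covered bases per bin, for vorinostat (left) and romidepsin (right), with values beyond the axis counted in the end bars. Below the histogram, circles are the 7 bins of the H19/IGF2 domain and squares the 14 bins of the KCNQ1 domain. Under romidepsin all 7 circles lay above 0, while the median fold of the 34082 tested bins was 0.882.

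Within the *IGF2* and *H19* bins the additional cover was spread over several steps of 10 kb. In the *IGF2*, *INS* and *TH* bin, the step at chr11:2160001-2170000 had 1231 untreated bases, 3582 and 3097 under vorinostat, and 5415 and 5172 under romidepsin, and the next step had 1078, then 4372 and 3442, then 4724 and 4493. In the *H19* bin, the step at chr11:2010001-2020000 had 480 untreated bases, 1801 and 1725 under vorinostat, and 3430 and 3488 under romidepsin. The step after it, the most covered of that bin in every list, had 4138, then 5452 and 4362, then 5838 and 6329. Between *H19* and *IGF2*, the step at chr11:2110001-2120000 held 180 untreated bases in 1 peak, and 4015 and 2700 under vorinostat and 4250 and 4571 under romidepsin in 8 or 9 peaks. It contains the longest stretch of the window that all 4 treated lists covered and the untreated list did not, chr11:2114398-2115529, of 1132 bases. This stretch begins directly after the untreated peak chr11:2114218-2114397.

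The stretch at chr11:2064734-2088695, between *H19* and *IGF2*, held no peak in any of the 5 lists. The longest gap of the H19/IGF2 domain measured 30471 bases untreated, 31925 and 30441 under vorinostat, and 24599 and 23962 under romidepsin, and the step at chr11:2070001-2080000 was empty in every list.

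In the KCNQ1 domain, the bins of *KCNQ1OT1* differed among themselves. The bin at chr11:2600001-2650000 had 4878 covered bases untreated, 2562 and 2604 under vorinostat, and 2220 and 2340 under romidepsin, the lowest folds of the window for each drug (0.530 and 0.467). The next, at chr11:2650001-2700000, had 4273 untreated, 6878 and 5701 under vorinostat, and 4249 and 4553 under romidepsin (1.47 and 1.03). The bin at chr11:2700001-2750000 had 14281 untreated, 19426 and 17563 under vorinostat, and 10290 and 14557 under romidepsin (1.30 and 0.870). There both vorinostat lists lay above the untreated value, and the romidepsin lists lay on either side of it, far apart from each other. Its widest untreated peak, at chr11:2717167-2723965 and 6799 bp long, corresponded to 7 peaks in each vorinostat list and to 6 and 8 in the romidepsin lists, which covered 69.3%, 69.8%, 52.3% and 67.3% of it.

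Elsewhere in *KCNQ1* the drugs differed from each other. At chr11:2550001-2600000 the untreated list covered 12263 bases, vorinostat 8843 and 8003, and romidepsin 15183 and 15934 (0.687 and 1.27). The step at chr11:2560001-2570000 within it had 3621 bases untreated, 786 and 347 under vorinostat, and 4099 and 4435 under romidepsin. The widest peak of the second romidepsin list, chr11:2553752-2559343 and 5592 bp long, lay in the same bin, and untreated peaks covered 25.6% of it. The bin at chr11:2500001-2550000, in which untreated cover was 5356 bases, was higher under both drugs (1.48 and 1.85). So was the bin at chr11:2750001-2800000, with 10285 bases untreated, 14933 and 14691 under vorinostat, and 18387 and 16716 under romidepsin (1.44 and 1.71). The other *KCNQ1* bins, at 2450001, 2800001 and 2850001, had folds of 0.942 to 0.983 under vorinostat and 0.881 to 1.09 under romidepsin.

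At the near end of the KCNQ1 domain, *CD81*, which encodes a tetraspanin, was placed across neighbouring bins that differed in direction under romidepsin. How much of *CD81* lies in each was not determined. The first (chr11:2350001-2400000) had 14227 covered bases untreated, 15575 and 14532 under vorinostat, and 11014 and 9145 under romidepsin (1.06 and 0.708). The second (chr11:2400001-2450000) also holds *TSSC4* and *TRPM5*, an ion channel gene of taste cells. It had 17602, then 20055 and 20535, then 26356 and 27262 (1.15 and 1.52). Its first 10 kb were covered by 5112 bases untreated, 6103 and 5570 under vorinostat, and 8339 and 8306 under romidepsin. They held the widest peak of the first vorinostat list, chr11:2400956-2405129 (4174 bp), and of the first romidepsin list, chr11:2400730-2405552 (4823 bp), which untreated peaks covered to 69.2% and 64.5%. The *TSSC4* stretch shown above has GRCh38 positions, so its similar numbers do not place these hg19 peaks at the start of *TSSC4*. The bin below *CD81*, chr11:2300001-2350000, had 16195 bases untreated, 13742 and 13408 under vorinostat, and 12761 and 16302 under romidepsin (0.838 and 0.897).

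At the far end, the bins of the maternally expressed *CDKN1C* and *PHLDA2* were the most covered in untreated and romidepsin cells. The bin of *CDKN1C*, *SLC22A18*, a transporter gene, and *PHLDA2* had 25980 bases untreated, 23701 and 23820 under vorinostat, and 31522 and 32468 under romidepsin (0.915 and 1.23). The bin of *PHLDA2* and *NAP1L4* had 27115, then 22167 and 19820, then 29210 and 28091 (0.774 and 1.06). In both bins the vorinostat lists lay below and the romidepsin lists above the untreated value. The widest untreated peak of the window, chr11:2947889-2955572 and 7684 bp long, spans the border of these bins. Treated peaks covered 92.1% and 89.5% of it under vorinostat and 85.1% and 88.0% under romidepsin, in 3 to 5 pieces. The untreated peaks at chr11:2917981-2924320 (6340 bp) and chr11:2960078-2966185 (6108 bp) were covered to between 72.1% and 79.9% by vorinostat peaks and to between 87.9% and 94.9% by romidepsin peaks. The widest peak of the second vorinostat list, chr11:2922101-2926552 (4452 bp), lay in the *CDKN1C* bin, and untreated peaks covered 67.3% of it.

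Treated peaks were narrower in both domains, as they were over the whole lists. In the H19/IGF2 domain the median width was 430 bp untreated, 232 and 216 bp under vorinostat, and 270 and 271.5 bp under romidepsin. In the KCNQ1 domain it was 622 bp, then 235.5 and 237.5 bp, then 246 and 256 bp. The narrowest peak of the window was 127 bp in the untreated list, 51 bp in each vorinostat list and 50 bp in each romidepsin list, as in the whole lists of chromosome 11. The settings given for peak calling are not tied to single lists. Whether the untreated list was called as the treated ones were is not stated, and for every width, peak number and cover set against the untreated list, calling settings and condition cannot be told apart. Among peaks of at least 200 bp alone, the H19/IGF2 peak numbers were 1.83-fold and 2.61-fold and the KCNQ1 numbers 1.73-fold and 1.82-fold.

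**Figure D4:**
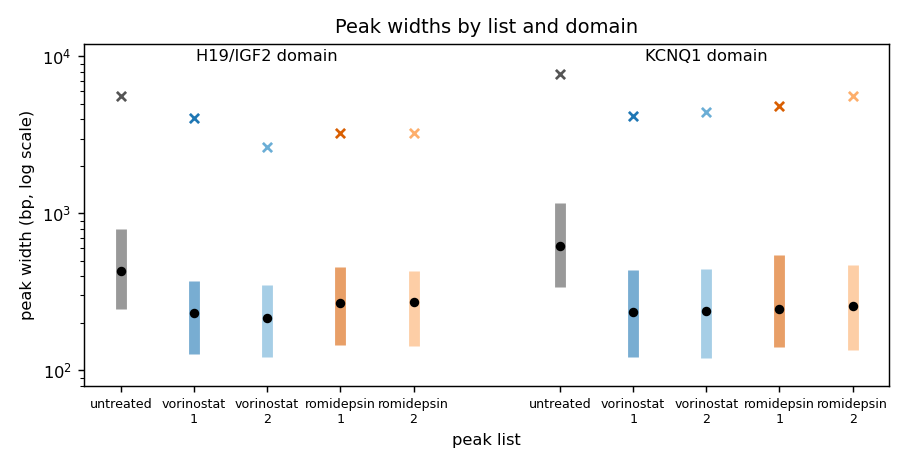
Peak width in bp, on a log scale, for each list in the H19/IGF2 domain (left) and the KCNQ1 domain (right). Thick bars span the quartiles, black points are medians and crosses the widest peak. Untreated medians of 430 and 622 bp lay above every treated median, which ranged from 216 to 271.5 bp.

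Untreated peaks were also followed into the treated lists. In the H19/IGF2 domain, 19 of 77 untreated peaks (24.7%) shared no base with a peak of either vorinostat list and 15 (19.5%) none with either romidepsin list. In the KCNQ1 domain these were 36 of 189 (19%) and 30 (15.9%), and over all untreated peaks 36.0% and 33.2%. Some untreated peaks held 2 or more peaks in both lists of a drug. In the H19/IGF2 domain these were 6 of 77 (7.79%) under vorinostat and 7 (9.09%) under romidepsin. In the KCNQ1 domain they were 44 of 189 (23.3%) and 37 (19.6%), against 15.5% and 18.0% of the same genome-wide sets. The untreated peaks of the H19/IGF2 domain were also the narrower ones.

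Most treated peaks lay outside the untreated ones, in both domains as over all chromosomes. In the H19/IGF2 domain the shares were 69.1% and 65.5% under vorinostat and 72.2% and 72.6% under romidepsin. They were 57.4%, 55.9%, 56.0% and 56.1% in the KCNQ1 domain and 63.5%, 61.9%, 61.1% and 59.7% over all chromosomes of each list. The last list has peaks only on the 20 chromosomes shared by all lists. Untreated cover was also lower in the H19/IGF2 domain, at 14.5% against 27.7% in the KCNQ1 domain, and a part of this in the shares was not tested. Conversely, 15844 bases, or 31.2% of untreated cover in the H19/IGF2 domain, were in no treated list, and 11508 bases (22.6%) were in all 5 lists. In the KCNQ1 domain these were 53803 bases (27.8%) and 50157 bases (25.9%). Bases in all 4 treated lists and not in the untreated list amounted to 12948 in 82 stretches of the H19/IGF2 domain, or 3.70% of it. In the KCNQ1 domain they amounted to 26445 in 176 stretches, or 3.78%. Among those of the H19/IGF2 domain is chr11:2025066-2025727 in the *H19* bin, which ends just before the untreated peak chr11:2025728-2025898. These shares of bases were not computed genome-wide, so they describe the domains alone.

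Both lists of a drug shared 65.3% (vorinostat) and 72.0% (romidepsin) of their joint bases in the H19/IGF2 domain and 69.5% and 73.4% in the KCNQ1 domain. Between the drugs, which are separate samples, lists shared 24.0% to 25.9% and 30.5% to 33.0%. Between the untreated and the treated lists these shares were 20.0% to 23.1% and 28.8% to 33.0%. In the KCNQ1 domain the drugs' lists thus overlapped each other about as much as they overlapped the untreated list. In the H19/IGF2 domain they overlapped each other somewhat more. Such shares also depend on how many bases each list covers, and they were not computed outside the window. Among the 5 widest untreated peaks of the H19/IGF2 domain, chr11:2198348-2203934 (5587 bp), at the border of the *IGF2* bin, was covered to 79.2% and 74.3% under vorinostat and to 88.5% and 88.7% under romidepsin. At the same place lay the widest peaks in this domain of vorinostat list 1 (4068 bp) and of both romidepsin lists (3274 and 3269 bp). The peak at chr11:1966536-1970691 (4156 bp) was covered to 74.4% and 74.5%, and 80.5% and 76.8%, and overlapped the widest peak of the second vorinostat list in this domain (2646 bp). The peak at chr11:2020140-2022583 in the *H19* bin (2444 bp) was covered to 68.0%, 67.1%, 48.2% and 85.4%, so that the romidepsin lists differed more from each other than either did from vorinostat. The peak at chr11:2224846-2226150 (1305 bp) was covered to 5.06%, 18.5%, 6.67% and 25.7%, though its bin had more covered bases in all treated lists. The peak at chr11:1951627-1953218 (1592 bp) was covered to 24.9% and 43.5%, and 42.7% and 54.3%. In the KCNQ1 domain, the peak at chr11:2417658-2424079 (6422 bp), in the bin of *CD81*, *TSSC4* and *TRPM5*, was covered to 72.2% and 69.0%, and 78.5% and 79.6%. Across the 21 bins, Pearson's r of covered bases was 0.979 and 0.982 between the lists of a drug, 0.871 and 0.862 between untreated and vorinostat and 0.769 and 0.789 between untreated and romidepsin, as a description of bins that share libraries.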

How the data were processed

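H3AcK9 ChIP-seq of SKOV3 WT comprised 6 samples, 3 ChIP samples (1 per condition) and 3 inputs, which enter no result here. According to the paper's supplement, SOAPnuke was used by the authors to filter reads and SOAPaligner, SOAP2 or BWA to align them, and peaks were called with MACS 1.4.2 at 1e-05 from alignments of at most 2 mismatches. Whether all lists were called with the same settings is not stated per list. Drosophila spike-in chromatin was added, and how it was used is not named. Each deposited peak has a score, which exceeds 1 for 1291687 peaks and whose scale is not named. The lists hold no read totals, so no interval is given.

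Positions fit hg19, although hg38 is named, since 14 of 23 chromosomes have peaks past their hg38 end and 5 contigs carry older names. No coordinates were converted, and genes were placed to 50-kb bins from general knowledge.

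Peak numbers, unions of covered bases and overlaps (at least 1 shared base) were computed with Python 3.11.15, NumPy 2.4.6 and pandas 2.3.3, and figures with Matplotlib 3.10.9. Peaks count in every domain or bin they touch, and covered bases are cut at its limits. Overlaps were checked against bedtools 2.31.1, and the functions were tested on simulated data (5000 peaks, 14 of 14 quantities recovered). Folds are the mean over the lists of a drug divided by the untreated value. Bins needed 1000 untreated bases, and 1.5-fold was the threshold. Genome-wide shares of bins and of untreated peaks used, for each drug, only chromosomes with peaks in both of its lists. There was no test. Named were the genes that define the window, 8 further landmarks, the 5 widest untreated peaks per domain, the widest peak per treated list, the 3 bins with the largest excess and deficit per drug, and the longest gap. Steps of 10 kb, stretches, scores of at least 5 and the bins described beyond this rule were chosen after their values were seen. The domain, the genes and the quantities were chosen with earlier results of these data known. The alternatives were each list alone, a score of at least 1, a width of at least 200 bp, merging across gaps of up to 300 or 1000 bp, narrower domains and a split at 2.4 Mb.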

Additional observations from a re-analysis of the deposited data

How the results depend on the processing

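No paired analysis was possible because each condition had 1 sample and no test was made. In what follows, values are folds of treated over untreated, first for vorinostat and then for romidepsin, and where 2 pairs follow each other the first is of the H19/IGF2 domain and the second of the KCNQ1 domain. With scores of at least 1, covered bases were 0.841 and 0.914 in the H19/IGF2 domain, both below 1 and the latter a reversal of a value past 1.5, and 0.503 and 0.458 in the KCNQ1 domain, and peak numbers 1.77 and 1.625, and 1.45 and 1.25. This setting keeps 77.9% and 65.1% of the untreated peaks of these domains and 30.7% to 55.2% of the treated ones. Over the chromosomes with peaks in all lists it keeps 44.5% of the untreated and 30.0% to 33.2% of the treated peaks. With a width of at least 200 bp, covered bases were 1.15 and 1.75, and 0.872 and 1.02, and peak numbers 1.83 and 2.61, and 1.73 and 1.82. Merged across 300 bp, covered bases were 1.5 and 2.14, and 1.13 and 1.26, and peak numbers 2.25 and 2.64, and 2.17 and 2.05. Merged across 1000 bp, covered bases were 2.05 and 2.82, and 1.58 and 1.69, and peak numbers 1.43 and 1.22, and 1.13 and 0.959, the last a reversal. Merging adds the bases of the gaps and joins peaks. In narrower domains, covered bases were 1.51 and 2.15 in the H19/IGF2 domain and 1.03 for vorinostat in the KCNQ1 domain, where the romidepsin peak number was 2.74. With the split at 2.4 Mb, covered bases were 1.18 and 1.48 in the H19/IGF2 domain and 1.17 for romidepsin in the KCNQ1 domain, and romidepsin peak numbers 2.96 and 2.75.

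The number of bins past 1.5-fold was 4 for vorinostat, 7 with the first list alone, 12 with scores of at least 1, 8 merged across 300 bp and 14 merged across 1000 bp, and 9 for romidepsin, 14 merged across 1000 bp. With a width of at least 200 bp the vorinostat count was again 4, but as 1 higher and 3 lower in place of 3 higher and 1 lower. Genome-wide shares of bins were not computed for these settings. For the folds, a single list could not move by more than the difference between both lists, because the main value comes from their mean. The vorinostat count of bins was 7 with the first list alone and 5 with the second, against 4. The romidepsin count was 7 and 10, against 9. The romidepsin fold of covered bases exceeded the vorinostat fold in 8 of 8 alternatives in the H19/IGF2 domain and in 7 of 8 in the KCNQ1 domain. The depth of the lists is unknown.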
